A study of Homo sapiens with 38 samples.

Results

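Untreated H9 cells were compared between day 8 and day 4 of neural induction. The comparison uses the libraries labelled CT0.0, with 2 from day 8 and 2 from day 4, so 4 of the 38 libraries in the series. H9 is an established human embryonic stem cell line of wild type genotype. CT is the WNT activator of the series, a name the labels do not expand, and the CT0.0 cells, titled untreated, are labelled with no CT and no other agent. IWP2 is an inhibitor of WNT secretion. The other groups used singly are undifferentiated cells at day 0, cells given 2.0 µM IWP2 and cells given 0.4 µM CT (CT0.4), each with 2 poly(A) RNA libraries per day. Comparisons with all 8 other conditions also take in CT at 0.8, 1.0, 2.0, 3.0 and 4.0 µM (CT0.8 to CT4.0) and CT at 4.0 µM with 1.0 µM of an agent given only as RA (CT4.0RA), likewise with 2 libraries per day. All groups come from the same line. The labels name the libraries biological replicates without saying that they were separate differentiations, so p-values measure only the spread between these libraries. The comparison asks which genes changed while the cells went on from day 4 to day 8 without an added WNT activator or inhibitor.

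Neural induction turns stem cells into a sheet of neuroepithelial progenitors, and progenitors that see little WNT take forebrain fates. As background, the anterior neural plate first expresses genes of the eye field and of the forebrain primordium, and a telencephalic programme with factors such as EMX2 and FEZF2 follows. HES genes encode bHLH repressors. HES3 and HES1 are known from early neuroepithelium, and HES5 is a target of NOTCH signalling in progenitors that have begun to resemble radial glia.

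The unit is TPM, which corrects each gene for its length and gives every library an equal total, so levels can be compared between genes. Changes are day 8 minus day 4 differences of log2(TPM + 1) ± SE from limma, a scale on which changes of weakly expressed genes come out too small. To be called, and described below as having risen or fallen, a gene needed a change of at least 1 in size with an adjusted p (Benjamini-Hochberg) under 0.05. Of 28221 genes tested, 1161 rose (4.11%) and 470 fell (1.67%), together 5.78%. Both day 8 libraries lay on one side of both day 4 libraries for 1622 of the called genes, and for every gene named here as risen or fallen. The same was true of 50.8% of all tested genes. Protein-coding genes made up 1016 of the calls, of which 738 rose.

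**Figure D1:**
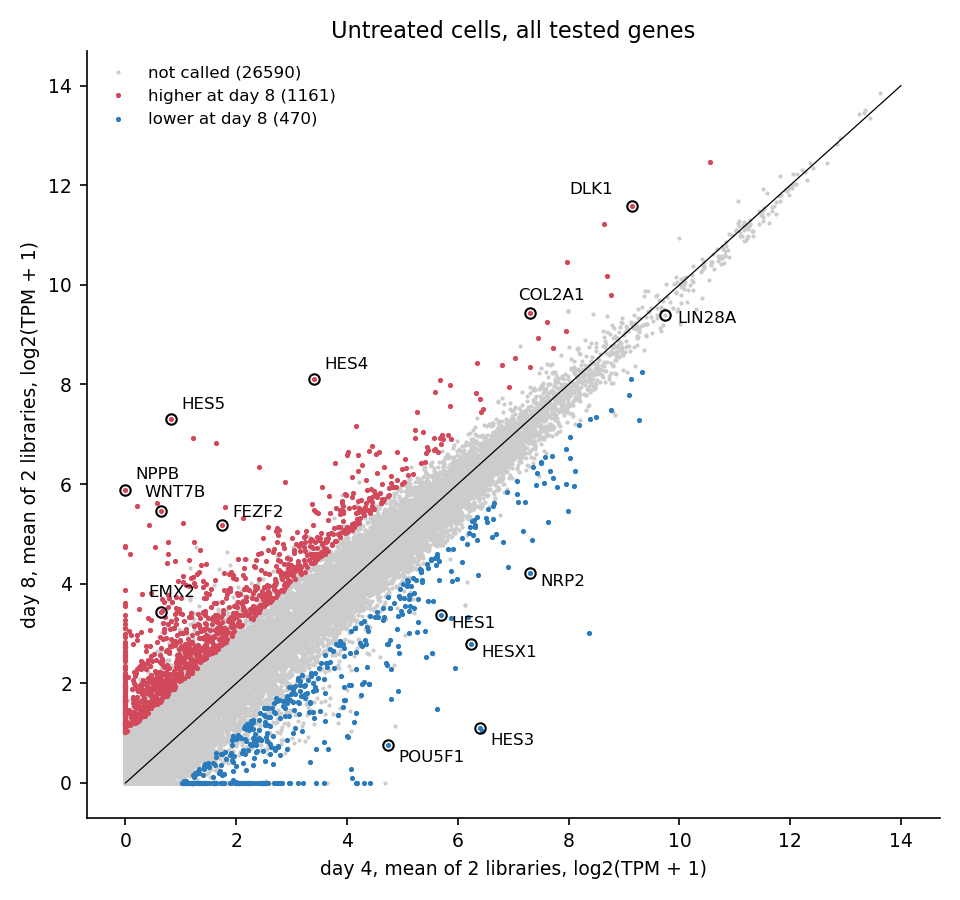
Each point is 1 of 28221 tested genes, with its mean log2(TPM + 1) over the 2 day 4 libraries on the x axis and over the 2 day 8 libraries on the y axis, and the line marks equal values. Red points are the 1161 genes that rose and blue points the 470 that fell. HES5 and NPPB lie far above the line and HES3 and POU5F1 far below it.

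The spread behind these tests comes from all 38 libraries. With the 4 libraries alone, which leave 2 residual degrees of freedom, 322 genes were called, 241 of them among the 1631. Of the 326 genes named by rule, 109 lost a call that way, and others of the 326 had no call to lose. HES5, HES3, NPPB and HESX1 were still called there, while FEZF2 (adjusted p = 0.0555) and EMX2 (adjusted p = 0.0532) were not. Of the 24 largest protein-coding changes, 16 were still called. POU5F1 (adjusted p = 0.0555), PAX2 (adjusted p = 0.0594), FGFR2 (adjusted p = 0.096), FGFR1 (adjusted p = 0.0974) and WNT8B (adjusted p = 0.291) were not. Calls described below as lost leave out losses in this fit unless it is named. Replicates correlated at r = 0.9639 at day 4 and r = 0.9577 at day 8 over the tested genes, the latter being the lowest of the 19 groups, and both day 8 libraries were closer to a day 8 IWP2 library (r = 0.9584 and 0.9594). Day 8 replicate 2 also held more small and structural RNA, 1.86% of its TPM against 1.18% in replicate 1 and 0.756% to 1.45% in the other 37 libraries. Without replicate 2 of day 8, 1270 genes rose and 417 fell. With TPM rescaled after these RNAs were removed, 1169 rose and 431 fell, and none of the named genes that could still be tested changed its call.

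The cells are labelled neural progenitors, which was checked against marker genes. All 5 progenitor markers were expressed on both days, their summed level being 1048 and 1079 TPM at day 4 and 1263 and 1159 TPM at day 8. None of 5 mesoderm and none of 5 endoderm markers reached 1 TPM in any of the 4 libraries. Of the stem cell markers, NANOG and TDGF1 were below 1 TPM throughout, so their summed level of 866 and 893 TPM at day 4 and 687 and 664 TPM at day 8 came almost wholly from LIN28A, which early neural cells keep. Neuron markers summed to 252 and 277 TPM at day 4 and to 370 and 362 TPM at day 8, with ELAVL4 below 1 TPM. The heart and muscle markers summed to under 4 TPM on both days. In bulk RNA, a change in the number of cells of a type cannot be told apart from a change in RNA per cell.

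Forebrain transcription factors moved in both directions. FEZF2, a zinc finger factor of the forebrain that is later needed for deep-layer cortical neurons, was at 2.52 and 2.19 TPM at day 4 and 44.2 and 28.1 TPM at day 8. Its change was 3.44 ± 0.36 (adjusted p = 3.9e-07), and the day 8 libraries differed from each other by more than the day 4 ones. EMX2, a homeobox factor of the dorsal telencephalon, was at 0.663 and 0.466 TPM at day 4 and 10.5 and 9.19 TPM at day 8, a rise of 2.79 ± 0.24 (adjusted p = 2.4e-08). HESX1, a homeobox repressor of the anterior neural plate and pituitary primordium, went the other way, from 77.9 and 70.5 to 5.83 and 5.97 TPM (-3.44 ± 0.30, adjusted p = 2.4e-08). At day 0, FEZF2 and EMX2 were below 0.1 TPM and HESX1 was at 8.31 and 18.7 TPM, so HESX1 was highest at day 4. In hg38, FEZF2 lies at chr3:62369681-62374324, HESX1 at chr3:57197838-57227606 and EMX2 at chr10:117542444-117549546.

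**Figure D2:**
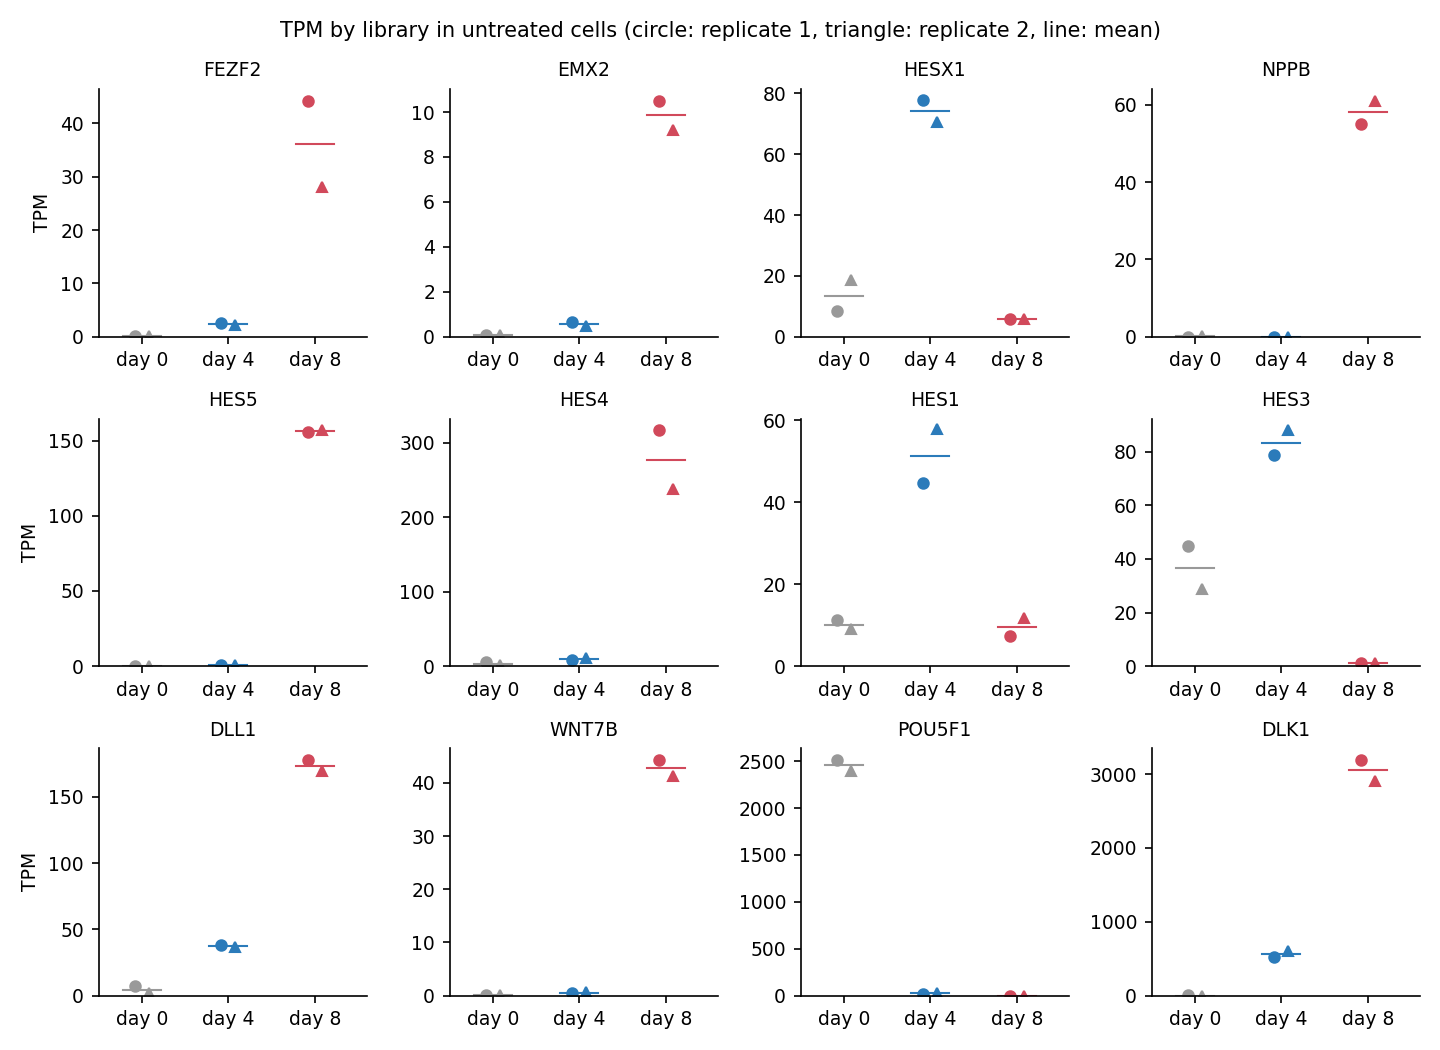
TPM (y axis, linear, a separate scale for each gene) of 12 genes in the day 0, day 4 and day 8 untreated libraries, where a circle is replicate 1, a triangle replicate 2 and a line their mean. HESX1, HES1 and HES3 are highest at day 4, POU5F1 at day 0, and the other 8 genes at day 8.

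Among 19 measured genes of the rostral forebrain, 6 were called as risen, 4 as fallen and 9 were not called, with a median change of 0.32 against 0.01 over all tested genes. EMX1, the paralogue of EMX2, rose from 1.48 and 2.02 to 7.997 and 8.26 TPM (1.74 ± 0.23, adjusted p = 1.1e-05). DLX5, a homeobox gene of the ventral forebrain, rose by 1.24 ± 0.18 to only 1.01 and 2.502 TPM, a call that was lost without replicate 2 of day 8. The genes that fell were SIX6, which was at 2.95 and 4.58 TPM at day 4 and listed at 0 in both day 8 libraries, RAX (-1.99 ± 0.21), FEZF1 (-1.28 ± 0.33) and HESX1. FEZF1 stayed abundant, at 438 and 433 TPM at day 4 and 193 and 165 TPM at day 8, and lost its call without replicate 2 of day 8. The abundant factors OTX2 (214 and 218 TPM at day 4 and 287 and 254 TPM at day 8) and PAX6 (99.7 and 107 TPM at day 4 and 126 and 95.1 TPM at day 8) were not called.

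Eye field and optic genes also moved in both directions. RAX, which is required for eye formation, was at 104 and 120.2 TPM at day 4 and 36.4 and 20.6 TPM at day 8 (adjusted p = 5.2e-07). PAX2, a factor of the optic stalk and of the midbrain-hindbrain boundary, fell from 13.2 and 18.9 to 0.0344 and 0.425 TPM (-3.79 ± 0.32, adjusted p = 2.1e-08). Of the 14 measured genes of the eye field list, 3 fell (PAX2, RAX and SIX6) and 2 rose, the ventral optic factors VAX1 (1.94 ± 0.20) and VAX2 (1.02 ± 0.25), both to under 4 TPM. VAX2 lost its call without replicate 1 of day 4 or replicate 2 of day 8, and with median scaling, in which each library is set to the same typical level over the genes that all libraries express (an alternative added after seeing the data). LHX2, another eye field gene, stood at 60.2 and 78.9 TPM at day 4 and 85.7 and 87.2 TPM at day 8 and was not called.

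Of 15 measured midbrain and isthmus genes, PAX2 and LMX1A fell and none rose. LMX1A, a dorsal midline and midbrain floor plate factor, went from 2.72 and 2.03 to 0.156 and 0.0932 TPM (-1.58 ± 0.25, adjusted p = 1.0e-04). FGF8, the signal of the isthmus and of the anterior neural ridge, was at 42.2 and 40.9 TPM at day 4 and 52.1 and 61.3 TPM at day 8 without being called. None of 21 measured hindbrain and spinal cord genes was called by limma, and none was above 1.05 TPM in the 4 libraries. At an unadjusted p under 0.05, 1 was higher and 0 lower, without a share over all tested genes to compare. Of 16 diencephalic genes, DBX1, an interneuron and hypothalamic homeobox gene, fell from 18.2 and 15.5 to 6.76 and 3.95 TPM (-1.52 ± 0.38), a call lost without replicate 1 of day 4 or replicate 2 of day 8, and WNT3 and DMBX1 rose to under 5 TPM, DMBX1 not with median scaling or without replicate 1 of either day. NR2F1, an orphan nuclear receptor of the developing cortex and of other neural tissue, rose from 18.5 and 22.1 to 107 and 93.7 TPM (2.26 ± 0.25, adjusted p = 7.6e-07), while NR2F2 stood at 42.7 and 36.5 TPM at day 4 and 29.6 and 24.8 TPM at day 8 and was not called.

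Among the HES genes, 2 of the repressors fell and 2 others rose. HES5 was at 0.574 and 1.002 TPM at day 4 and 156 and 157 TPM at day 8, the largest rise of any protein-coding gene (6.47 ± 0.33, adjusted p = 7.1e-12). HES4 rose from 8.76 and 10.5 to 317 and 238 TPM (4.7 ± 0.33, adjusted p = 1.2e-09). HES3 fell from 78.8 and 87.98 to 1.22 and 1.09 TPM, the largest fall of any protein-coding gene (-5.29 ± 0.33, adjusted p = 2.5e-10). HES1 fell from 44.6 and 57.9 to 7.399 and 11.7 TPM (-2.32 ± 0.22, adjusted p = 1.3e-07), close to its day 0 level of 11.2 and 9.11 TPM. Of 13 measured HES and HEY genes, HES4, HES5 and HEYL (1.53 ± 0.21) rose, HES1 and HES3 fell and 8 were not called, among them HES6 (20.3 and 22.3 TPM at day 4 and 18.5 and 24.7 TPM at day 8). By level, HES4 and HES5 led the family at day 8, and HES3 and HES1 at day 4.

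The upstream sequences of these 4 genes are shown because they moved in opposite directions. Each run is the 250 bases before the transcription start in RefSeq on GRCh38.p14 (hg38), written 5′ to 3′ in the direction of the gene. Capitals mark GTGGGAA or its reverse complement TTCCCAC, the core letters of the site bound by RBPJ, the DNA-binding partner of NOTCH. The windows are chr1:2530264-2530513 (minus strand) for HES5, chr1:1000098-1000347 (minus strand) for HES4, chr3:194135898-194136147 (plus strand) for HES1 and chr1:6243929-6244178 (plus strand) for HES3.
HES5: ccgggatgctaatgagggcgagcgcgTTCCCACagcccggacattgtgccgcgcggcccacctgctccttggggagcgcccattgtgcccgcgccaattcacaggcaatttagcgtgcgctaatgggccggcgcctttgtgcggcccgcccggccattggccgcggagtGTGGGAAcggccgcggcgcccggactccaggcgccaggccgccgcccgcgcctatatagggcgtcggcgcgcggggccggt
HES4: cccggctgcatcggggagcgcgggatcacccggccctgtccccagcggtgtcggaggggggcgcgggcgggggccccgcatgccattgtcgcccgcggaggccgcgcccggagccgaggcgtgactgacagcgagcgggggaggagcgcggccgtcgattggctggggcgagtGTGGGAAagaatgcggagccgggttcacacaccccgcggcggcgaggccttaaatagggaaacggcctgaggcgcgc
HES1: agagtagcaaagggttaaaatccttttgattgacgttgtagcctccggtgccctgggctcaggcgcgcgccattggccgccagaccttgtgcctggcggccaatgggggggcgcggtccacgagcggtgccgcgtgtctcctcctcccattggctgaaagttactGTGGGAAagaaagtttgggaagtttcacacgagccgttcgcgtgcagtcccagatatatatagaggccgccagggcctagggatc
HES3: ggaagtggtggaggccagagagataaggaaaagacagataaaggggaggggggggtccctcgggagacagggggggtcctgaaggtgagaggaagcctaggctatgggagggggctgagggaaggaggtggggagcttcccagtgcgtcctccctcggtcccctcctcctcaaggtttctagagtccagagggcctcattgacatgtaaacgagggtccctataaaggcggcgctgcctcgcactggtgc
HES5 held 2 matches, starting 224 and 81 bases before the start, HES4 held 1 at 77 bases and HES1 held 1 at 85 bases. HES3 held none in this window. On both strands together, 5.43% of 35116 RefSeq promoter windows of this length held at least 1 match and 0.174% held 2 or more. Of the 12 HES and HEY genes that the RefSeq table matched, 5 held one (HES1, HES4, HES5, HEY2 and HEYL), so the match was present in genes that rose, in 1 that fell and in 1 that was not called. A match is a run of letters and not a measured binding site.

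NOTCH ligands, receptors and feedback genes rose or were not called, and none of 23 fell. DLL1, the transmembrane ligand of the delta family, was at 38.4 and 36.8 TPM at day 4 and 178 and 169 TPM at day 8 (2.18 ± 0.31, adjusted p = 3.0e-05). LFNG, a glycosyltransferase that modifies NOTCH receptors, rose from 54.8 and 59.7 to 275 and 234 TPM (2.13 ± 0.16, adjusted p = 4.1e-09). The receptor NOTCH1 rose from 17.3 and 20.2 to 45.6 and 42.7 TPM (1.2 ± 0.14), and the feedback inhibitor NRARP from 20.7 and 18.5 to 62.3 and 53.7 TPM (1.52 ± 0.18). The sixth call, the ligand JAG2 (1.01 ± 0.29), was lost with median scaling and without any 1 of the 4 libraries. The list's median was 0.38. JAG1, at 53.01 and 50.4 TPM at day 4 and 111 and 91.6 TPM at day 8 (0.95 ± 0.20, adjusted p = 0.00185), was under the size needed for a call. RBPJ stood at 76.2 and 78.3 TPM at day 4 and 71.7 and 72.2 TPM at day 8. NOTCH3 was lower at day 8, at 77.5 and 88.8 TPM at day 4 and 67.2 and 63.1 TPM at day 8 (-0.34, adjusted p = 0.0281), also under that size.

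DLK1, a delta-like membrane protein that lacks the DSL domain of NOTCH ligands and is an imprinted gene, was among the most abundant of all the genes that rose. It was at 2.85 and 0.842 TPM at day 0, 529 and 608 TPM at day 4 and 3194 and 2908 TPM at day 8 (2.42 ± 0.35, adjusted p = 2.6e-05). Its neighbour in the same imprinted domain, the noncoding RNA MEG3, was at 8.87 and 6.15 TPM at day 4 and 20.5 and 17.8 TPM at day 8 (1.26 ± 0.34, adjusted p = 0.0116), a call lost without replicate 2 of day 4 or replicate 1 of day 8. DIO3, a thyroid hormone deiodinase from that domain, went from 0.775 and 0.583 to 19.3 and 21.7 TPM (3.68 ± 0.21, adjusted p = 4.9e-11). DIO3 was picked out after its values were seen. Of 16 measured imprinted genes, 6 rose and none fell, with a median of 0.53. Besides DLK1 and MEG3 these were PLAGL1 (1.51 ± 0.19), IGF2 (1.68 ± 0.29), H19 (1.21 ± 0.28) and PHLDA2 (1.06 ± 0.27), and the last lost its call with median scaling or without replicate 1 of day 4. IGF2, H19 and PHLDA2 stayed below 8 TPM.

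**Figure D3:**
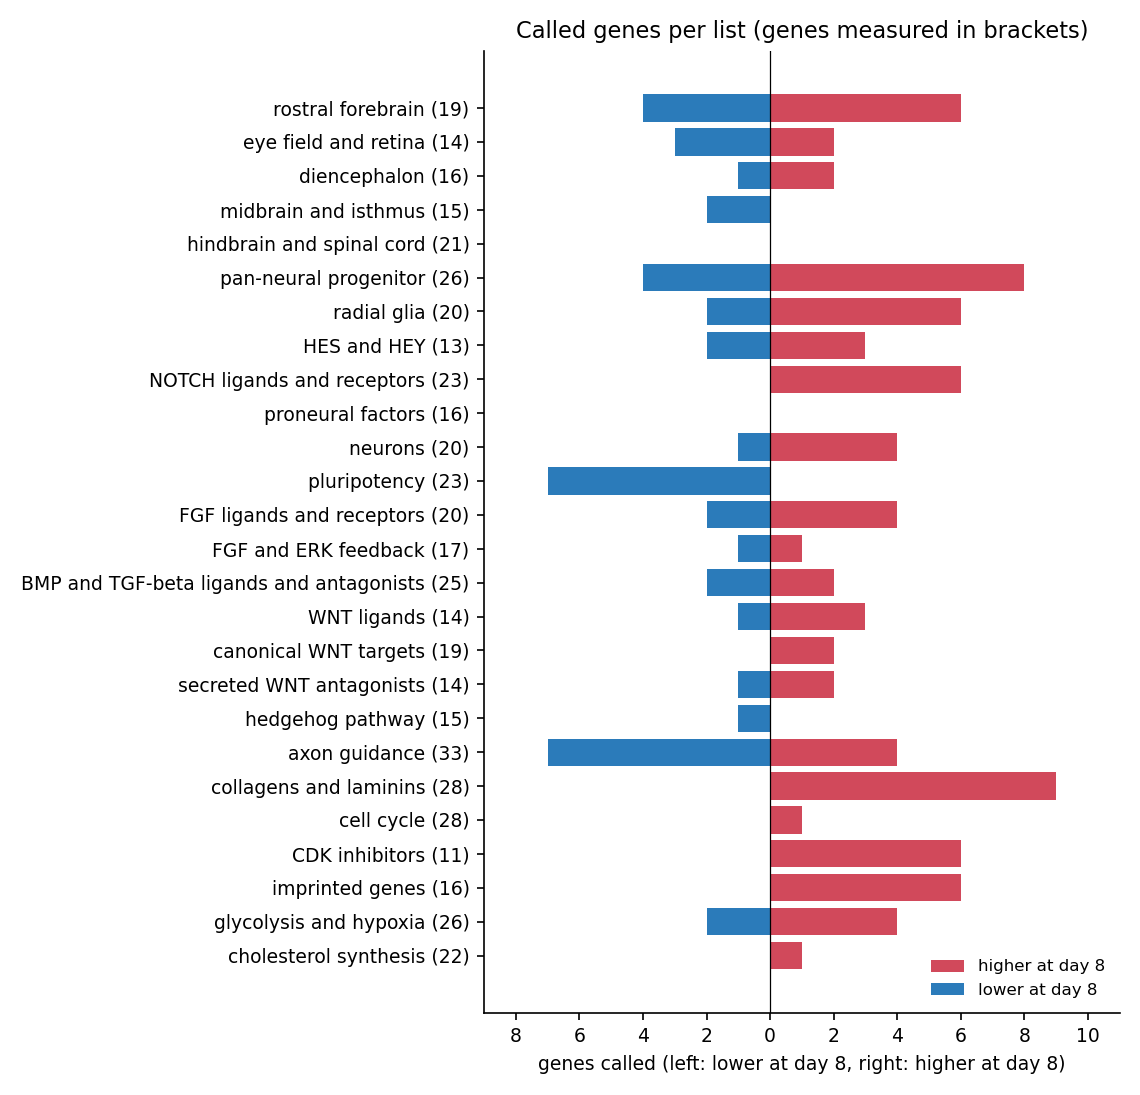
Number of genes called (x axis) per gene list (y axis, measured genes in brackets), with genes that rose to the right and genes that fell to the left. NOTCH, collagen and laminin, CDK inhibitor, imprinted, canonical WNT target, cell cycle and cholesterol synthesis genes have no bar on the left. Pluripotency, midbrain and isthmus, and hedgehog genes have none on the right. Hindbrain and spinal cord genes and proneural factors have no bar on either side.

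Among the 26 pan-neural progenitor genes, 8 rose and 4 fell, with a median change of 0.36. SOX1, an early marker of neural commitment, rose from 1.86 and 1.97 to 14.2 and 13.4 TPM (2.34 ± 0.23, adjusted p = 2.4e-07). FABP7, a lipid carrier of radial glia, rose from 52.8 and 48.3 to 246 and 295 TPM (2.4 ± 0.15, adjusted p = 1.4e-10), and ZBTB16 from 12.9 and 15.2 to 49.5 and 49.99 TPM (1.76 ± 0.20). ZIC genes diverged. ZIC1 rose from 6.14 and 5.49 to 23.00 and 46.3 TPM (2.31 ± 0.43, adjusted p = 4.3e-04), with the day 8 libraries far apart, while ZIC2 fell from 262 and 260.3 to 89.6 and 92.9 TPM (-1.51 ± 0.19, adjusted p = 4.0e-06) and ZIC5 from 36.4 and 31.7 to 10.7 and 9.21 TPM (-1.68 ± 0.21). MEIS1 (1.27 ± 0.34) and MEIS2 (1.29 ± 0.35) rose too, but MEIS1 lost its call without replicate 2 of day 4 or replicate 1 of day 8, and MEIS2 without replicate 1 of day 4 or replicate 2 of day 8. SOX2 (432 and 426 TPM at day 4 and 414 and 386 TPM at day 8) and NES (324 and 353 TPM at day 4 and 470.1 and 441 TPM at day 8), the general progenitor markers, were not called.

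Radial glia genes included 6 that rose and 2 that fell of 20 measured. SOX9, a factor of neural stem cells and of glia, was at 8.05 and 11.3 TPM at day 4 and 42.8 and 44.1 TPM at day 8 (2.07 ± 0.16, adjusted p = 6.5e-09). TTYH1, a membrane protein of neural stem cells, rose from 167 and 181 to 499 and 471 TPM (1.47 ± 0.19), and FAM107A from 0.0737 and 0.498 to 5.09 and 3.47 TPM (2.04 ± 0.26). VIM, the intermediate filament of these cells, stood at 333 and 360.4 TPM at day 4 and 702 and 661 TPM at day 8, a change of 0.97 ± 0.13 (adjusted p = 8.6e-06) that is just under the size limit. Of 14 SOX genes, SOX1, SOX9 and SOX6 rose and none fell, SOX6 going from 5.87 and 6.54 to 25.2 and 28.2 TPM (1.94 ± 0.39).

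None of 16 measured proneural factors was called by limma in either direction, and none was above 3.30 TPM in the 4 libraries. An unadjusted p under 0.05 was reached by 4 with higher and 0 with lower values. The share of all tested genes at that limit is not given here, so the count has no comparison. Of 20 neuronal genes, 4 rose and 1 fell. DCX, a microtubule protein of young neurons, rose from 5.48 and 6.205 to 20.7 and 25.7 TPM (1.82 ± 0.18, adjusted p = 2.8e-07), and STMN2, another microtubule regulator, from 20.003 and 18.3 to 44.99 and 46.6 TPM (1.22 ± 0.20, adjusted p = 1.1e-04). SNAP25, a protein of synaptic release, rose by 1.36 ± 0.30 to 3.51 and 1.78 TPM and GAD1, which makes GABA, by 1.47 ± 0.36 to 6.15 and 4.71 TPM, and both lost the call without replicate 1 of day 8 (GAD1 also without replicate 1 of day 4). GAP43, a growth cone protein, fell from 18.6 and 17.5 to 5.42 and 6.18 TPM (-1.49 ± 0.22, adjusted p = 3.0e-05). TUBB3, at 141 and 157 TPM at day 4 and 174 and 180.1 TPM at day 8, and MAP2, at 85.4 and 95.3 TPM at day 4 and 129 and 109.5 TPM at day 8, were not called.

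Of 23 measured pluripotency genes, 7 fell and none rose. POU5F1, the core pluripotency factor, was at 2514 and 2399 TPM at day 0, 20.5 and 32.4 TPM at day 4 and 0.895 and 0.508 TPM at day 8 (-3.99 ± 0.31, adjusted p = 4.3e-09). DNMT3B, a de novo DNA methyltransferase, fell from 166 and 171 to 62.1 and 62.5 TPM (-1.42 ± 0.11, adjusted p = 4.3e-09), L1TD1 from 13.8 and 15.01 to 3.37 and 2.29 TPM (-2.02 ± 0.34) and VRTN from 26.6 and 24.7 to 5.28 and 6.53 TPM (-1.95 ± 0.20). PRDM14 (-1.46 ± 0.23), KLF4 (-1.13 ± 0.16) and ESRG (-1.02 ± 0.16) complete the 7 that fell, the last 2 losing their call without replicate 2 of day 8. Outside the list, the zinc finger gene ZSCAN10 fell from 15.6 and 14.7 to 1.31 and 0.581 TPM (-3.08 ± 0.23, adjusted p = 2.4e-09). LIN28A, the RNA-binding protein that blocks let-7 maturation, stood at 844 and 859 TPM at day 4 and 685 and 662 TPM at day 8 (-0.34 ± 0.06, adjusted p = 1.3e-04) and SALL4 at 120.1 and 134 TPM at day 4 and 117 and 99.7 TPM at day 8 without a call for either.

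The miR-302/367 cluster, which encodes the most abundant microRNAs of human embryonic stem cells, was lower at day 8. The mature 3p arms are shown because 4 of the 5 share one seed, bases 2 to 8, which is in capitals (RefSeq, GRCh38.p14, minus strand of chromosome 4, 5′ to 3′).
hsa-miR-302a-3p: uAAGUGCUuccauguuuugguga
hsa-miR-302b-3p: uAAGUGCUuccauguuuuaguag
hsa-miR-302c-3p: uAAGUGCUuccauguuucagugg
hsa-miR-302d-3p: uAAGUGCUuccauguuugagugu
hsa-miR-367-3p: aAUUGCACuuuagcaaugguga
The miR-302 arms have the seed AAGUGCU and miR-367-3p has AUUGCAC. From miR-302b-3p at chr4:112648489-112648511 to miR-367-3p at chr4:112647877-112647898, the cluster lies within the host transcript MIR302CHG and, on the opposite strand, within LARP7 (chr4:112636964-112657592).

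The deposited table gives the precursor genes, not mature microRNAs, which poly(A) libraries do not capture. The host transcript MIR302CHG, listed as RP11-148B6.1, was at 1593 and 1775 TPM at day 0, 406 and 269 TPM at day 4 and 10.2 and 4.77 TPM at day 8 (-5.36 ± 0.69, adjusted p = 7.4e-06). MIR367 was at 16.8 and 24.6 TPM and MIR302A at 16.8 and 20.7 TPM at day 4, and both were listed at 0 in both day 8 libraries, as was MIR302D after 6.73 and 3.08 TPM. MIR302C stood at 13.5 and 9.23 TPM at day 4 and 0 and 5.81 TPM at day 8 and was not called (adjusted p = 0.106), and MIR302B was listed at 0 on both days. LARP7, whose product binds the 7SK RNA, was at 198 and 199 TPM at day 0, 199 and 176 TPM at day 4 and 66.5 and 62.1 TPM at day 8 (-1.53 ± 0.14, adjusted p = 5.7e-08). No strand setting is given in the sources used here, so reads from LARP7 and from the cluster inside it cannot be told apart with certainty. The precursor genes also lie within the host transcript, so their falls may not be separate from that of the host.

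**Figure D4:**
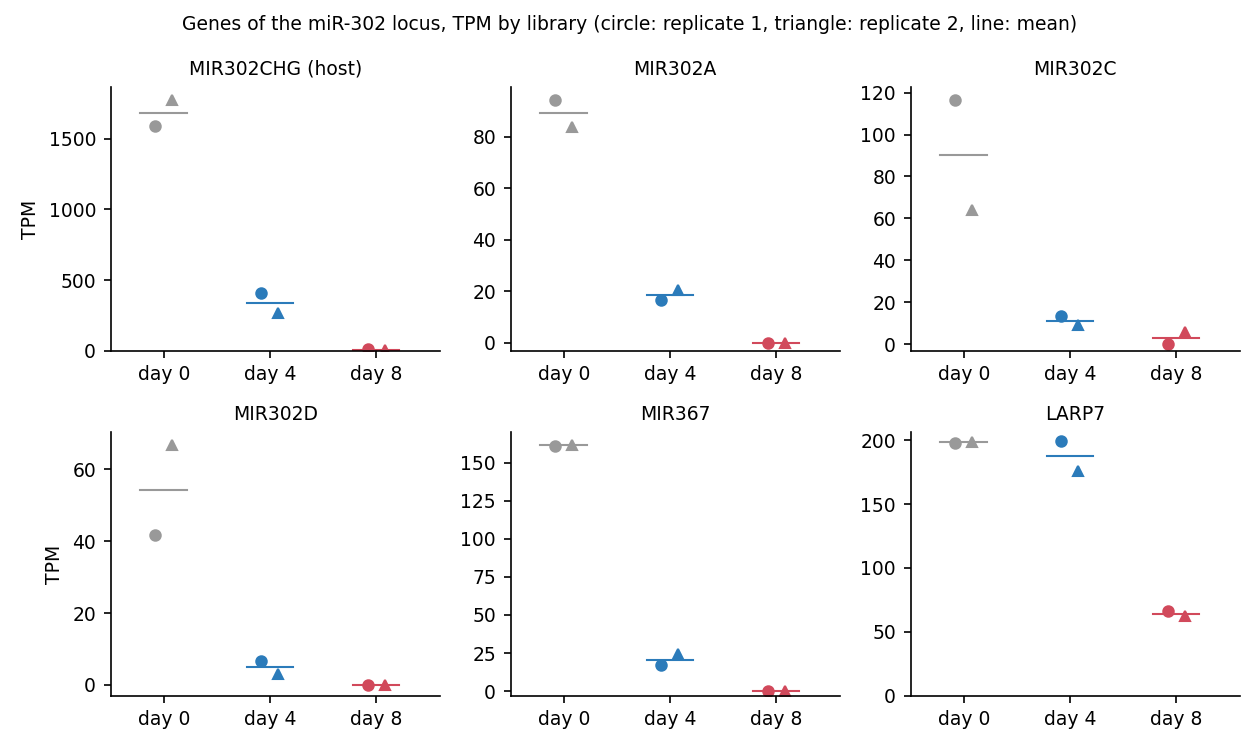
TPM (y axis, linear, a separate scale per gene) of the miR-302/367 host transcript, 4 of its precursor genes and LARP7 in the day 0, day 4 and day 8 untreated libraries, where a circle is replicate 1, a triangle replicate 2 and a line their mean. The host and precursor genes are highest at day 0 and lowest at day 8, and MIR302C has 1 day 8 library above 0. LARP7 is near the same level at day 0 and day 4 and lower at day 8.

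NPPB, the precursor of B-type natriuretic peptide, a heart hormone, was at 0 and 0.173 TPM at day 0, was listed at 0 in both day 4 libraries and was at 55.1 and 61.1 TPM at day 8 (adjusted p = 1.4e-14). It lies at chr1:11857464-11858931 in hg38. Of the other 8 measured genes of the natriuretic peptide system none was called, and the receptor NPR2 stood at 5.698 and 7.57 TPM at day 4 and 7.82 and 5.75 TPM at day 8. The heart muscle markers MYH6, MYH7 and MYL7 stayed below 1 TPM in all 4 libraries and NKX2-5 was listed at 0 throughout. Of 8 measured muscle and heart genes, 4 rose and none fell, namely 2 actins, the actin-binding protein TAGLN and the calcium-binding troponin TNNC1 (1.33 ± 0.33), whose call was lost without replicate 2 of day 4 or of day 8. ACTC1, cardiac actin, rose from 3.21 and 3.501 to 43.9 and 34.3 TPM (3.19 ± 0.37, adjusted p = 1.6e-06), ACTA2, smooth muscle actin, from 16.8 and 22.1 to 74.97 and 59.4 TPM (1.74 ± 0.15) and TAGLN from 119 and 141 to 384 and 356 TPM (1.5 ± 0.22).

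ANKRD1, a nuclear and sarcomere protein that is a known YAP target, rose from 0.227 and 0.454 to 29.2 and 41.9 TPM (4.75 ± 0.19, adjusted p = 1.0e-13). The matricellular genes CYR61 (now CCN1) and CTGF (now CCN2), which are also YAP targets, rose from 16.4 and 15.4 to 75.3 and 64.2 TPM (2.06 ± 0.21) and from 23.3 and 21.4 to 82.98 and 65.6 TPM (1.68 ± 0.20). None of the 4 TEAD factors through which YAP acts was called, TEAD1 being at 61.6 and 65.5 TPM at day 4 and 64.1 and 58.02 TPM at day 8 and TEAD2 at 255 and 239.7 TPM at day 4 and 188 and 172 TPM at day 8. The group of targets and TEAD factors was put together after values were seen. It has 10 measured genes, of which these 3 rose, none fell and 7 were not called, among them the target AJUBA at 75.3 and 86.02 TPM at day 4 and 102 and 79.6 TPM at day 8.

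Of 20 FGF ligands, receptors and carriers, 4 rose and 2 fell, the latter both receptors. FGFR1, the most abundant receptor, went from 583 and 705 to 333 and 274 TPM (-1.08 ± 0.12), a call lost without replicate 2 of either day. FGFR2 went from 69.8 and 72.96 to 13.3 and 6.11 TPM (-2.84 ± 0.21, adjusted p = 2.2e-09). FGFR3 stood at 20.3 and 19.4 TPM at day 4 and 14.1 and 15.6 TPM at day 8. The decoy receptor FGFRL1 (1.24 ± 0.21), the carrier FGFBP3 (1.68 ± 0.18), FGF13 (1.13 ± 0.16) and FGF10 (1.57 ± 0.25) rose, FGF13 losing its call without replicate 1 of day 8. Of 17 ERK feedback genes, DUSP6, a phosphatase of ERK, fell (-1.39 ± 0.29) and ETV4 rose (1.05 ± 0.19), the latter not called without replicate 1 of day 4 or replicate 2 of day 8.

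Among 14 measured WNT ligands, 3 rose and WNT8B fell. WNT7B, a ligand of the developing cortex, was at 0.471 and 0.644 TPM at day 4 and 44.4 and 41.3 TPM at day 8 (4.82 ± 0.23, adjusted p = 3.8e-12). WNT5B rose from 43.7 and 57.1 to 123 and 118 TPM (1.25 ± 0.22) and WNT3 from 1.46 and 1.16 to 3.78 and 4.195 TPM (1.11 ± 0.22). WNT8B, named in the series title, was at 2.78 and 3.19 TPM at day 4 and 1.596 and 0.317 TPM at day 8 (-1.1 ± 0.27, adjusted p = 0.00587), low on both days. It was not called without replicate 2 of day 4, without replicate 2 of day 8 or with the 4 libraries alone. SOX21, the repressor in that title, stood at 156 and 166 TPM at day 4 and 129 and 100.04 TPM at day 8, a difference of -0.50 ± 0.26 (adjusted p = 0.197) that did not pass although the days did not overlap. The canonical target AXIN2, a feedback inhibitor of the pathway, stood at 14.4 and 13.04 TPM at day 4 and 21.1 and 11.6 TPM at day 8, with the days overlapping. Of 19 canonical targets, LGR5 (1.27 ± 0.26) and WNT3 rose and none fell. Of 14 secreted WNT antagonists, 2 rose and 1 fell. SFRP4 (1.36 ± 0.38) and the receptor KREMEN1 (1.01 ± 0.22) rose to under 4 TPM, and both calls were lost without replicate 1 of day 4 or replicate 2 of day 8, that of SFRP4 also without replicate 2 of day 4 and that of KREMEN1 with median scaling. SFRP1 fell by little more than a call requires, from 533 and 585 to 274 and 279.7 TPM (adjusted p = 2.5e-07), and lost its call without replicate 2 of day 4 or replicate 1 of day 8. SFRP2 stood at 425 and 446 TPM at day 4 and 339.7 and 349 TPM at day 8.

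Of 25 measured BMP and TGF-beta ligands and antagonists, 2 rose, 2 fell and 21 were not called, with a median change of 0.07. The called genes were all antagonists of BMP or activin. FST, which binds activin, fell from 37.7 and 46.2 to 5.296 and 4.31 TPM (-2.89 ± 0.18, adjusted p = 1.4e-10), and GREM1 from 5.62 and 4.65 to 0.685 and 0.746 TPM (-1.83 ± 0.18). NOG (1.24 ± 0.22) and CHRDL1 (1.05 ± 0.14) rose, CHRDL1 losing its call without replicate 1 of day 4. The ID genes, inhibitors of bHLH factors and targets of BMP, did not move together. Of 9 measured genes in the list of BMP targets, 1 rose, 2 fell and 6 were not called, among them ID1. ID4 rose from 9.86 and 11.5 to 67.4 and 53.9 TPM (2.39 ± 0.31, adjusted p = 7.8e-06), while ID3 fell from 46.1 and 53.3 to 16.7 and 15.1 TPM (-1.58 ± 0.17, adjusted p = 7.0e-07) and ID2 from 335 and 332 to 145 and 171 TPM (-1.08 ± 0.19), ID2 losing its call without replicate 1 of day 8. In the hedgehog list, with 15 genes measured, GLI1 alone was called, falling from 4.35 and 1.76 to 0.0545 and 0.0277 TPM (-1.88 ± 0.45), a call lost without replicate 1 of day 4. Of 17 roof plate and choroid plexus genes, LMX1A and the R-spondins RSPO2 (-1.53 ± 0.27) and RSPO3 (-1.47 ± 0.24), which strengthen WNT signals, fell, and ZIC1 and FOLR1 rose, FOLR1 not without replicate 1 of day 4 or replicate 2 of day 8.

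Axon guidance genes gave 4 rises and 7 falls of 33 measured. NRP2, a receptor for semaphorins and VEGF, fell from 157 and 155 to 21.2 and 14.5 TPM (-3.08 ± 0.20, adjusted p = 2.5e-10). SEMA6A fell from 144 and 145 to 31.3 and 33.7 TPM (-2.12 ± 0.14, adjusted p = 5.8e-10), SEMA6D from 38.97 and 44.5 to 6.29 and 8.51 TPM (-2.36 ± 0.29) and the SLIT receptor ROBO1 from 205 and 215 to 69.7 and 67.01 TPM (-1.61 ± 0.15). The ephrin ligands diverged, EFNB2 falling from 73.9 and 79.01 to 32.5 and 28.3 TPM (-1.3 ± 0.10) and EFNB1 rising from 39.7 and 45.6 to 102 and 112 TPM (1.31 ± 0.11). SEMA5A rose (1.66 ± 0.18), as did the netrin receptor DCC (2.05 ± 0.45), whose day 8 libraries were at 8.99 and 3.24 TPM and whose call was lost without replicate 1 of day 8.

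Of 28 collagens, laminins and related matrix genes, 9 rose and none fell. COL2A1, fibrillar collagen of cartilage and of early neuroepithelium, rose from 161 and 153 to 726 and 660.1 TPM (2.13 ± 0.14, adjusted p = 2.5e-10), and COL11A1 from 18.7 and 17.6 to 85.5 and 78.6 TPM (2.11 ± 0.24). LAMC1, a chain shared by most laminins, rose from 30.9 and 32.98 to 89.04 and 90.5 TPM (1.46 ± 0.11), and fibronectin FN1 from 41.1 and 52.7 to 109.8 and 132 TPM (1.35 ± 0.16). The others included COL5A2 (2.35 ± 0.18) and COL12A1 (2.06 ± 0.23). The list's median was 0.50. Among cadherins, CDH2, the neural cadherin, stood at 191 and 192 TPM at day 4 and 238 and 224 TPM at day 8 and was not called, whereas CDH7 fell (-1.25 ± 0.25) and CDH8 rose (1.12 ± 0.29), a call lost for CDH8 without replicate 1 of day 4.

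Of 11 measured CDK inhibitors and other genes that slow the cell cycle, 6 rose and none fell, with a median of 1.17. CDKN2C, an inhibitor of the CDKs that act on RB, rose from 0.217 and 0.248 to 3.16 and 2.31 TPM (1.59 ± 0.19, adjusted p = 2.8e-06), and CDKN1A (p21), from 2.21 and 5.24 to 9.82 and 10.1 TPM (1.29 ± 0.23), the latter not called without replicate 1 of day 4. BTG2, an antiproliferative gene of neurogenic progenitors, rose from 10.9 and 11.9 to 31.2 and 24.3 TPM (1.21 ± 0.14), and CDKN2D, GADD45B and GADD45G rose by between 1.17 ± 0.23 and 1.73 ± 0.27, all to under 8 TPM. Of 28 cell cycle genes, CCND1 was the 1 called, rising from 36.1 and 43.02 to 87.9 and 82.9 TPM (1.1 ± 0.15), a call lost without replicate 1 of day 4. Of the uncalled cell cycle genes, 12 with higher and 7 with lower values reached an unadjusted p under 0.05, without a share over all tested genes to compare. PCNA, the replication clamp, stood at 378 and 353 TPM at day 4 and 282 and 312 TPM at day 8, and MCM4, a helicase subunit, at 421 and 420.5 TPM at day 4 and 263 and 312 TPM at day 8.

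Genes of other kinds were also among those with the largest changes. FAM69C, a kinase-like protein of the brain, rose from 0.692 and 0.707 to 30.9 and 24.5 TPM (4.07 ± 0.14, adjusted p = 1.2e-14) and MPPED1, a brain phosphodiesterase, from 2.97 and 6.07 to 76.2 and 84.8 TPM (3.94 ± 0.30, adjusted p = 3.3e-09). CRIP1, a LIM domain protein, rose from 1.03 and 1.09 to 33.1 and 39.2 TPM (4.17 ± 0.34). LCN9, a lipocalin, had its lowest values at day 4, with 38.4 and 24.7 TPM at day 0 and 0.137 and 0.865 TPM at day 4 and 28.7 and 22.6 TPM at day 8 (4.19 ± 0.31). Among the falls, LRAT, which esterifies retinol, went from 28.8 and 29.9 to 2.35 and 2.903 TPM (-3.07 ± 0.24, adjusted p = 4.6e-09), PCYT1B, an enzyme of phosphatidylcholine synthesis, from 45.2 and 45.6 to 6.0004 and 4.25 TPM (-2.93 ± 0.15) and ZACN, a ligand-gated channel, from 9.64 and 8.61 to 0.411 and 0.269 TPM (-2.92 ± 0.52). VWF, a clotting protein of endothelium, fell from 12.1 and 10.99 to 0.576 and 0.611 TPM (-2.98 ± 0.24, adjusted p = 1.0e-08), as did KDR, a VEGF receptor, from 4.06 and 4.08 to 0.625 and 1.38 TPM (-1.37 ± 0.17, adjusted p = 6.7e-06), so 2 of the 6 measured genes of the endothelium and blood list fell and none rose. The endothelial marker CDH5 and the leukocyte marker PTPRC were below 1 TPM in all 4 libraries and the summed level of the 5 endothelial and blood markers was 21.0 and 19.5 TPM at day 4 and 13.2 and 13.5 TPM at day 8.

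Which of these changes differ from those in other conditions was tested as the day 8 minus day 4 change in untreated cells less the same change elsewhere. Against the mean over the other 8 conditions, 448 genes had a higher and 283 a lower change in untreated cells (2.59% of 28221). All 6 markers differed there. The difference was 3.86 ± 0.34 (adjusted p = 2.0e-07) for HES5, 3.57 ± 0.38 (adjusted p = 2.1e-06) for FEZF2 and 2.88 ± 0.22 (adjusted p = 2.0e-08) for NPPB. It was 2.66 ± 0.25 (adjusted p = 4.8e-07) for EMX2, -3.31 ± 0.35 (adjusted p = 2.3e-06) for HES3 and -2.99 ± 0.31 (adjusted p = 1.9e-06) for HESX1. WNT7B (3.51 ± 0.25), MPPED1 (3.44 ± 0.32) and the tetraspanin CD82 (3.32 ± 0.32) had some of the largest positive differences, and FGFR2 (-3.36 ± 0.22), SEMA6D (-2.95 ± 0.30), HES1 (-2.77 ± 0.24) and LMX1A (-2.53 ± 0.27) some of the largest negative ones. POU5F1 (-0.38 ± 0.33, adjusted p = 0.559), PCYT1B (adjusted p = 0.381) and NR2F1 (adjusted p = 0.995) were not shown to differ, POU5F1 having changes between -4.28 and -2.8 in all 9 conditions. The change of HES5 was 6.47 in untreated and 6.11 in IWP2 cells, 2.7 to 3.73 at the lowest CT doses and 0.24 with CT4.0. For NPPB it lay between 4.23 and 5.88 in the 6 conditions from IWP2 to CT2.0 and between -0.02 and 0.42 in the other 3.

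**Figure D5:**
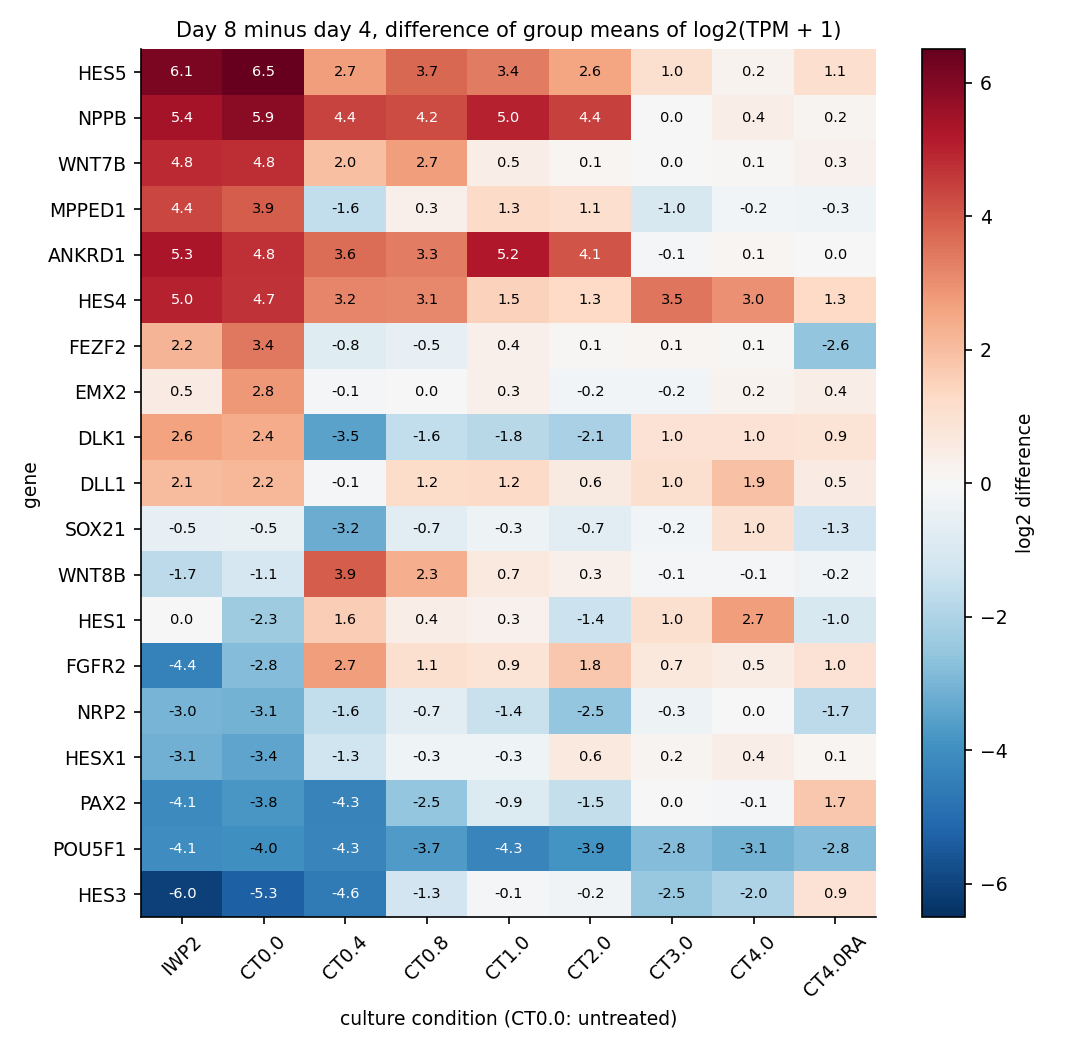
Day 8 minus day 4 difference of group means of log2(TPM + 1) for 19 genes (rows) in 9 conditions (columns, 2 libraries per day each), printed in each cell, with red for higher and blue for lower at day 8. POU5F1 is lower at day 8 in every column, while HESX1 and FEZF2 have their largest changes, lower and higher, in the untreated and IWP2 columns.

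Against IWP2, 65 genes differed (30 higher and 35 lower changes, 0.23% of 28221). EMX2 was one of them (2.26 ± 0.34, adjusted p = 0.00131), with 1.13 and 0.606 TPM in the day 8 IWP2 libraries against 10.5 and 9.19 TPM in untreated ones. HES1 was another (-2.29 ± 0.32, adjusted p = 5.3e-04), where IWP2 cells had 44.7 and 47.98 TPM at day 4 and 43.1 and 47.1 TPM at day 8. PAX8, a factor of the midbrain-hindbrain boundary and other organs, had the largest negative difference (-3.49 ± 0.45, adjusted p = 2.3e-04), with 0.837 and 1.16 TPM at day 4 and 8.54 and 17.4 TPM at day 8 under IWP2 and 3.66 and 2.86 TPM at day 4 and 1.49 and 1.54 TPM at day 8 in untreated cells. The other 5 markers were not shown to differ, HES5 by 0.36 ± 0.46 (adjusted p = 0.853), HES3 by 0.76 ± 0.47 (adjusted p = 0.611), NPPB by 0.48 ± 0.29 (adjusted p = 0.606), HESX1 by -0.33 ± 0.42 (adjusted p = 0.851) and FEZF2 by 1.23 ± 0.50 (adjusted p = 0.373). Of 22 genes of cholesterol synthesis and sterol response, 8 had a lower change in untreated cells and none a higher one. HMGCS1, an early enzyme of that pathway, differed by -1.52 ± 0.20 (adjusted p = 2.3e-04), being at 257 and 271 TPM at day 4 and 307 and 331 TPM at day 8 in untreated cells and at 136 and 134 TPM and 445 and 492 TPM on these days under IWP2. FDFT1, which makes squalene, differed by -1.11 ± 0.10 (adjusted p = 2.0e-06), being at 189.6 and 203 TPM at day 4 and 282 and 286 TPM at day 8 in untreated cells and at 119 and 118 TPM and 387 and 359 TPM under IWP2. Without replicate 2 of the untreated day 8 group, 100 genes differed (61 higher and 39 lower), 49 of them among the 65, and the split was 20 higher and 52 lower without replicate 1 and 17 higher and 47 lower without replicate 2 of day 4. With only the 8 libraries compared, 91 genes differed, 21 of them among the 65, and EMX2, HES1 and PAX8 were not among those.

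Against CT0.4, the lowest dose of the WNT activator, 1908 genes differed (6.76%), 472 with a higher and 1436 with a lower change in untreated cells. The median difference over all genes was -0.13 and moved to 0 with median scaling, under which 614 were higher and 916 lower, so the split by direction depends on the scaling. With only the libraries compared, 981 genes differed. DLK1 differed by 5.88 ± 0.49 (adjusted p = 1.8e-08), being at 218 and 193 TPM at day 4 and 16.6 and 18.97 TPM at day 8 in CT0.4 cells. Positive differences were also found for MPPED1 (5.52 ± 0.42), the cortical progenitor factor DMRTA1 (4.42 ± 0.35), FEZF2 (4.21 ± 0.50) and the WNT receptor FZD5 (3.94 ± 0.22). LMX1A had the largest negative one (-6.87 ± 0.36, adjusted p = 1.8e-11), at 278 and 169.7 TPM in CT0.4 cells at day 8, followed by COL3A1 (-6.08 ± 0.34), VIT (-5.96 ± 0.23), TAC1 (-5.95 ± 0.50), GDF7 (-5.88 ± 0.28) and WNT2B (-5.84 ± 0.32), which, LMX1A included, stayed under 4 TPM in untreated cells on both days. The sign and call of these differences were the same with median scaling. SOX21 differed by 2.72 ± 0.36 (adjusted p = 1.6e-05) and WNT8B by -5.02 ± 0.39 (adjusted p = 6.4e-09). HES3 was not shown to differ (-0.68 ± 0.47, adjusted p = 0.414).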

How the data were processed

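Poly(A) RNA of H9 cells was sequenced in 38 paired-end libraries. The authors deposited 1 table of TPM values per gene. CASAVA 1.7, Salmon 0.8.2 and build hg38 are named, per the submitters' processing notes, and the sources used here give no strand setting or annotation release. TPM keeps no depth, so depth is unknown and values carry no counting interval. Of 58219 genes, 57881 were matched to GENCODE release 29 for type and position. Genes with at least 1 TPM in 2 libraries were tested on log2(TPM + 1) with limma 3.58.1 (R 4.3.3, trended eBayes), fitting 19 group means (19 residual degrees of freedom). The fit was tested on simulated data. Alternatives were other pseudocounts (0.1, 0.5), filters, gene subsets, a replicate block, no trend, the compared libraries alone and leaving out each library, and, added after seeing the data, median scaling and TPM without small and structural RNAs. The text names the markers, the title genes, the 12 largest protein-coding changes per direction, up to 6 called and 3 abundant uncalled genes per list, and the 6 largest differences per direction. Members and lists were chosen with earlier results of these data known. DIO3, LARP7, CD82, EMX1, ZBTB16, ZIC2, ZIC5, MEIS1, MEIS2, ESRG, EFNB1, EFNB2, FN1, the noncoding RNAs and the families added in the closing section fall outside the rule and were picked after their values were seen. A few genes that the rule took are not reported here.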

Additional observations from a re-analysis of the deposited data

Results flagged for a closer look

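Results in which the day 8 minus day 4 change of untreated cells differed from the change in other conditions are listed here with the limma test of that difference, in log2 units ± SE. Against the mean of the other 8 conditions all 6 markers differed, by 3.86 ± 0.34 for HES5, 3.57 ± 0.38 for FEZF2, 2.88 ± 0.22 for NPPB, 2.66 ± 0.25 for EMX2, -3.31 ± 0.35 for HES3 and -2.99 ± 0.31 for HESX1. Against CT0.4, the differences were 4.21 ± 0.50 for FEZF2, 3.77 ± 0.46 for HES5, 2.92 ± 0.34 for EMX2, 1.48 ± 0.29 (adjusted p = 0.00113) for NPPB and -2.15 ± 0.42 (adjusted p = 9.7e-04) for HESX1. HES3 was not shown to differ from CT0.4, and of the 6 markers only EMX2 was shown to differ from IWP2.

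Against IWP2, the 6 largest called differences of protein-coding genes in each direction are given here, apart from 1 that is not reported. Lower changes in untreated cells were found for PAX8 (-3.49 ± 0.45), HES1 (-2.29 ± 0.32), CCDC62 (-1.86 ± 0.37, adjusted p = 0.0259), ADAMTS19 (-1.82 ± 0.31, adjusted p = 0.00511), PKD1L1 (-1.76 ± 0.38, adjusted p = 0.0427) and the calcium-binding protein S100B (-1.74 ± 0.38, adjusted p = 0.0499). Higher changes were found for EMX2 (2.26 ± 0.34), NOS2 (1.88 ± 0.36, adjusted p = 0.0196), DMRTA1 (1.68 ± 0.35), FAM167B (1.6 ± 0.32, adjusted p = 0.0225) and FGFR2 (1.53 ± 0.30, adjusted p = 0.0196). NOS2, an inducible nitric oxide synthase, was at 0.63 and 0.534 TPM at day 4 and 11.1 and 8.89 TPM at day 8 in untreated cells and at 1.68 and 1.43 TPM under IWP2 at day 8. FGFR2 was at 54.9 and 47.95 TPM at day 4 and 1.44 and 1.63 TPM at day 8 under IWP2, lower at day 8 than in untreated cells. CCDC62, PKD1L1 and S100B stayed below 3 TPM in all of these libraries, and the calls of PKD1L1 and S100B were lost with median scaling and without any 1 of the 4 untreated libraries. The calls of DMRTA1, NOS2, FGFR2, FAM167B and CCDC62 were lost without at least 2 of them in turn.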

How the results depend on the processing

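The planned TMM scaling was tried and then dropped, since its tool models raw counts, and median scaling took its place. The counts under TMM are not given here. TPM hides the reads behind each value, low genes rest on few reads, and 2 libraries per group limit the precision. The replicate 1 minus replicate 2 deviations of day 4 and day 8 correlated at r = -0.0016 over genes, so no shared deviation was seen. That value takes in many weakly expressed genes, so it cannot show that the replicates were unpaired between days. The fit with a replicate block called 1629 genes (1160 higher and 469 lower) against 1631. Of the alternatives for the day 8 minus day 4 change, protein-coding genes alone gave 1063 calls among 15533 genes tested, and only the 4 libraries compared gave 322, with 2 in place of 19 residual degrees of freedom. Leaving out 1 library leaves 1 in its group and kept a similar number of calls, but not all of the same genes. The same genes were not all kept in the comparisons with other conditions either. Median scaling gave 980 higher and 439 lower. Against the other 8 conditions the alternatives gave between 499 and 825 calls, and leaving out 1 library 581 to 701. Against IWP2, a 5 TPM filter gave 38 calls among 17345 genes and leaving out 1 library 64 to 100. Against CT0.4, only the libraries compared gave 981 calls and leaving out 1 library 1693 to 1974. TPM rescaled without ribosomal protein and mitochondrial genes gave 618 higher and 1006 lower there and median scaling 614 and 916, against 472 and 1436. Apart from these settings all counts were within 1.5 times those reported. No value past the threshold in either fit changed sign. Some uncalled ones did, PAX6 going from 0.09 to -0.12 without replicate 1 of day 8. Of 326 named genes, 197 kept their side of the threshold under every alternative run, 115 lost a call under at least 1, most of them (109) with the 4 libraries alone, and 14 gained one. The 197 include genes that were never called, such as PAX6. Where a cause of a changed call or sign is not given by the setting itself, it was not tested.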

Other observations

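The gene families in this paragraph were picked after their values were seen. Of 9 measured annexins, calcium-dependent membrane-binding proteins, 4 rose and none fell, ANXA3 not without replicate 2 of either day. ANXA1 was at 0 and 0.129 TPM at day 4 and 19.3 and 27.7 TPM at day 8 (4.51 ± 0.24, adjusted p = 2.3e-11) and ANXA2 at 3.399 and 1.74 TPM at day 4 and 42.05 and 49.02 TPM at day 8 (3.74 ± 0.23, adjusted p = 1.4e-10), while ANXA5 stood at 126 and 124 TPM at day 4 and 147 and 138 TPM at day 8. Of 7 metallothioneins, zinc- and copper-binding proteins, 5 fell and none rose. MT1F was at 30.3 and 28.9 TPM at day 4 and 4.48 and 5.74 TPM at day 8 (-2.33 ± 0.37, adjusted p = 8.2e-05) and MT1E at 5.12 and 4.403 TPM at day 4 and 0.36 and 0.348 TPM at day 8 (-2.09 ± 0.37). MT1X, at 96.3 and 89.1 TPM at day 4 and 43.4 and 44.8 TPM at day 8 (-1.05 ± 0.34, adjusted p = 0.0335), and MT1H lost their call without any 1 of the 4 libraries, and MT1G without any of 3. These genes are near-identical copies, so the split of reads among them is uncertain. Of the 6 ARMCX genes, a family on the X chromosome linked to mitochondria, ARMCX3 rose from 37.6 and 35.1 to 145 and 125 TPM (1.86 ± 0.08, adjusted p = 1.2e-12), ARMCX2 from 110.5 and 110.1 to 394 and 281 TPM (1.59 ± 0.17) and ARMCX6 from 41.99 and 42.1 to 103 and 92.01 TPM (1.19 ± 0.07), and none fell. The change of all 3 was larger than under IWP2, by 1.11 ± 0.12 (adjusted p = 1.9e-05) for ARMCX3, 1.13 ± 0.24 (adjusted p = 0.0364) for ARMCX2 and 1.08 ± 0.10 (adjusted p = 1.4e-06) for ARMCX6.

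Of 26 glycolysis and hypoxia genes, 4 rose and 2 fell. The glucose transporter SLC2A1 rose from 232 and 259.8 to 519 and 562 TPM (1.13 ± 0.20, adjusted p = 3.3e-04) and VEGFA from 12.4 and 16.4 to 35.5 and 39.1 TPM (1.32 ± 0.18), while the hexokinase HK2 fell from 35.6 and 33.1 to 10.2 and 11.5 TPM (-1.58 ± 0.12, adjusted p = 4.4e-09). Of 18 measured retinoic acid genes, 1 rose and 1 fell. The carrier CRABP1 rose from 186 and 203 to 570.1 and 646 TPM (1.64 ± 0.45, adjusted p = 0.0113), a call lost without replicate 1 of day 4 or replicate 2 of day 8. RARG, a retinoic acid receptor, fell from 11.97 and 15.9 to 5.79 and 5.94 TPM (-1.11 ± 0.19, adjusted p = 2.2e-04), a call lost without replicate 2 of day 4. Of 20 p53 and stress genes, 3 rose and none fell, PHLDA3, a p53 target, going from 0.914 and 0.799 to 9.87 and 9.16 TPM (2.5 ± 0.21, adjusted p = 1.1e-08). Of 21 immediate early genes, 6 rose and KLF4 fell, ATF3 going from 7.54 and 10.004 to 25.5 and 20.3 TPM (1.3 ± 0.18). CXCR4, a chemokine receptor that neural progenitors also express, rose from 4.04 and 5.14 to 30.02 and 28.6 TPM (2.44 ± 0.18, adjusted p = 3.3e-09).

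Long noncoding RNAs, also picked after their values were seen, included large changes. JAKMIP2-AS1 fell from 87.7 and 83.1 to 1.07 and 1.07 TPM (-5.39 ± 0.31, adjusted p = 6.0e-11), MIAT from 268 and 287 to 95.9 and 59.6 TPM (-1.86 ± 0.21) and SOX2-OT from 44.6 and 46.7 to 9.85 and 13.4 TPM (-1.9 ± 0.22), although SOX2 itself was not called. EMX2OS, antisense to EMX2, rose from 0.299 and 0.161 to 17.2 and 9.52 TPM (3.49 ± 0.39, adjusted p = 1.1e-06), and without a stated strand setting its reads cannot be told apart from those of EMX2 where the genes overlap. RN7SL2, a signal recognition particle RNA, was at 556 and 287 TPM at day 4 and 1241 and 4544 TPM at day 8 (2.57 ± 0.47, adjusted p = 3.6e-04), its day 8 value being highest in the library with the most structural RNA. It was still called without that library.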
